A study of Mus musculus with 16 samples.

Results

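The claudins described here are Cldn1, Cldn2, Cldn3, Cldn4, Cldn7, Cldn8, Cldn12, Cldn15 and Cldn23, chosen by name as the family members known from colon epithelium, 9 of the 45513 genes counted. Their RNA levels were compared between epithelial cells of the mouse colon that carried an Atoh1-driven label and those that did not. The mice were 8 to 16 weeks old, of both sexes and on a C57BL/6 background. All of them were homozygous for Atoh1(WT)CreERT2, in which a tamoxifen-inducible Cre recombinase is made downstream of the coding sequence of Atoh1, the transcription factor that specifies secretory cells, and heterozygous for Rosa26tdTom/+, a fluorescent reporter that Cre switches on. Tamoxifen was given at 1 mg per day for 3 days, as the sample labels and the treatment methods for the secretory signature state. The general methods for RNA sequencing instead name a dose of 3 mg and collection after 24 h. Live EpCAM+ cells were separated by the reporter, and each of 8 mice gave 1 library of tdTom+ and 1 of tdTom− colon cells, 16 in all. No group without tamoxifen or without the Cre allele is part of this comparison. The tdTom+ population therefore holds cells that had expressed Atoh1 by the time of labelling and any progeny formed before the sort. The tdTom− cells are all other EpCAM+ cells of the crypt-enriched fractions, including secretory cells without the label. In the paper, enteroendocrine and tuft cells did not carry the reporter 24 h after a single pulse of tamoxifen. Enteroendocrine cells did carry it at a later time point there. The paper gives the fullest labelling of all secretory lineages as the aim of the repeated daily doses. The share of enteroendocrine cells that carried the label in these mice was not tested.

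Claudins are small membrane proteins with a pair of extracellular loops that join neighbouring epithelial cells at the tight junction. Those called barrier-forming or sealing (Cldn1, Cldn3, Cldn4, Cldn7 and Cldn8 here) restrict the passage of ions between cells, while pore-forming members (Cldn2 and Cldn15) open paracellular channels for small cations and water. In the intestine Cldn2 is known from the crypt base and Cldn15 is a main route for sodium to return to the lumen. Cldn12 and Cldn23 are less well assigned and were kept apart as a group of their own.

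Atoh1 itself was found at 102.5 to 166 CPM (counts normalised to library size) in tdTom+ and 3.18 to 8.89 CPM in tdTom− libraries (log2 fold change 4.56, SE 0.12, adjusted p = 1.42e-15, edgeR quasi-likelihood test). Library totals ran from 16482530 to 24218367 counts in tdTom+ cells and from 18318172 to 45791503 in tdTom− cells, where only the library of mouse 4 lay above 20668605. Of 10 goblet markers 9 were higher in tdTom+ cells, and the list summed to 53213.9 to 109303.4 CPM against 2853 to 9564.5 CPM. The remaining marker, Guca2a, was lower (log2 fold change -0.31, SE 0.09, adjusted p = 0.00882, same test). All 10 absorptive colonocyte markers were lower, summing to 661 to 981 CPM in tdTom+ and 6557 to 12639 CPM in tdTom− cells, with Cyp3a11 at 0 counts in tdTom+ cells. Enteroendocrine markers summed to 326 to 825 CPM against 1442.5 to 4205 CPM, tuft markers to 58.0 to 118 against 109.8 to 184 CPM, and stem and dividing cell markers to 583 to 872 against 725 to 1216 CPM. Immune markers summed to 4.01 to 7.18 against 6.39 to 31.5 CPM and endothelial and stromal markers to 3.65 to 5.59 against 6.16 to 8.26 CPM. Cd3g, Cdh5, Cldn5 and Dcn had 0 counts in tdTom+ cells, but only 5, 1, 9 and 2 counts over all libraries of both populations. The part of these cell type differences in the claudin values below was not tested, and in sorted populations fewer cells of a type and less RNA per cell cannot be told apart.

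The reference sequences before the start sites of 4 members are shown because they belong to the pairs compared later: Cldn2 and Cldn15, the pore-forming pair, and Cldn3 and Cldn4, sealing genes that lie 39279 bases apart on chromosome 5. Each is the run of 250 bases before a RefSeq start site (GRCm38.p6), written 5′ to 3′ on the strand of the gene, in lower case with 4 short motifs in capitals on either strand. The motif CAGCTG is the core of the E-box form that factors like Atoh1 bind, and it reads the same on both strands. The motif GGGCGG is known as the GC box. The basal promoter element searched was the TATA box, spelled TATAAA. The last motif was TTTATG, which intestinal Cdx factors bind. No matches overlapped in these windows. The Cldn15 window lies inside the gene as GENCODE annotates it, downstream of the first base at 136966616, so its RefSeq start site is an internal one. Its last 25 bases also lie in a claudin exon of that annotation, and the second CAGCTG of the window runs into them.
Cldn2 (chrX:139800558-139800807, plus strand): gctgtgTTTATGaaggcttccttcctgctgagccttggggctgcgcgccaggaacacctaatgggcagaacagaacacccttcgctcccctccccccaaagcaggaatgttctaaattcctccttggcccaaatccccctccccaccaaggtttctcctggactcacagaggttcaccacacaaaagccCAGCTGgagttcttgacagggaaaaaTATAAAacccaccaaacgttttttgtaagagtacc
Cldn15 (chr5:136967619-136967868, plus strand): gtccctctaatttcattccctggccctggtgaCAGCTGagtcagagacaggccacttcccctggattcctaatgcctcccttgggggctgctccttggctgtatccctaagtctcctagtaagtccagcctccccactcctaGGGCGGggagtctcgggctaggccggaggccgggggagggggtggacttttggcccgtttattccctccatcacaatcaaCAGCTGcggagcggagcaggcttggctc
Cldn3 (chr5:134985964-134986213, plus strand): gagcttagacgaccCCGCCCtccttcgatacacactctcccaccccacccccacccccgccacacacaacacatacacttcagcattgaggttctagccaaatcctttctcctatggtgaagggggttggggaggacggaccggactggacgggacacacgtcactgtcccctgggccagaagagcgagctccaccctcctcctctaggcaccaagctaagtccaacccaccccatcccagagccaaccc
Cldn4 (chr5:134946935-134947184, minus strand): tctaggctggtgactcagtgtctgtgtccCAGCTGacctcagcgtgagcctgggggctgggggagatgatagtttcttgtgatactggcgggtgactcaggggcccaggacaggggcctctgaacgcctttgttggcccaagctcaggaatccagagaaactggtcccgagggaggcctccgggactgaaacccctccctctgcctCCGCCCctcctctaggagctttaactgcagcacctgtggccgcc
CAGCTG stood once in the Cldn2 and Cldn4 windows and 2 times in the Cldn15 window, and it was absent from the Cldn3 window. Counted from the start site to the first base of the match, it began at -61 in Cldn2, -221 in Cldn4 and, for the first of both matches, -218 in Cldn15. Over all 32851 windows of the reference, 13.0% held CAGCTG, 32.7% held the GC box, 12.4% the TATA box and 10.8% the Cdx motif, counting either strand. Cldn2 alone among the 7 members with a window held the TATA box letters, starting at -35. The windows of Cldn1, Cldn7 and Cldn12, which are not shown, held no CAGCTG. For Cldn8 and Cldn23 the reference had no window.

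Of the 9 claudins, 8 passed the filter on low counts and all 8 differed between the populations at a Benjamini-Hochberg adjusted p under 0.01. Cldn2, Cldn12 and Cldn15 were higher in tdTom+ cells (3 members), where 28.4% of the 15841 genes tested were higher. Cldn3, Cldn4, Cldn7, Cldn8 and Cldn23 were lower (5 members), where 28.9% of all genes were lower. The populations did not overlap for Cldn12 and Cldn15, higher in every tdTom+ library than in any tdTom− library (15.2% of all genes), nor for Cldn7, Cldn8 and Cldn23, lower in every tdTom+ library (15.3% of all genes). The median size of the log2 fold change was 0.59 over the 8 members and 0.33 over all genes tested. At such shares of genes called, passing the threshold sets the claudins little apart, and their sizes and directions are described here.

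**Figure D1:**
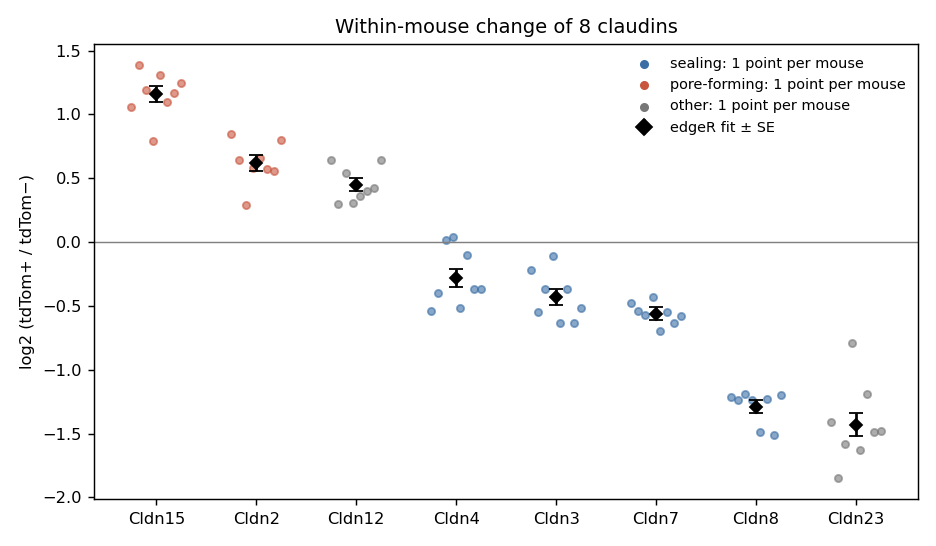
Log2 ratio of tdTom+ to tdTom− cells within each of 8 mice (small points) and the edgeR fit with its SE (diamonds) for the 8 claudins tested, ordered by fold change and coloured by role. Both pore-forming claudins and Cldn12 lie above 0 in every mouse, and the sealing claudins tested and Cldn23 lie below 0 except Cldn4 in 2 mice.

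Each of the 4 sealing claudins that could be tested fell in tdTom+ cells, by amounts from 1.21-fold (Cldn4) to 2.45-fold (Cldn8). Cldn8 (ENSMUSG00000050520; chr16:88560828-88563183, minus strand), a sealing claudin of the distal gut and kidney whose coding transcript is a single exon, had 32.3, 38.7 and 43.5 CPM in tdTom+ cells (lowest, median and highest of 8 libraries) and 78.0, 93.3 and 106 CPM in tdTom− cells. Its populations were separated by a gap, and it was lower in 8 of 8 mice. Its log2 fold change was -1.29 (SE 0.05, adjusted p = 2.26e-13). The within-mouse ratios kept close together, from -1.51 to -1.19.

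Cldn7 (ENSMUSG00000018569; chr11:69964779-69967885, plus strand) is an abundant claudin that also lies along the lateral membrane, where it binds EpCAM. It had 459, 509 and 585 CPM in tdTom+ and 670.4, 759 and 851 CPM in tdTom− libraries. No tdTom+ library reached the lowest tdTom− library. On the log2 scale Cldn7 changed by -0.56 (SE 0.05, adjusted p = 1.95e-08), again in 8 of 8 mice and with the smallest spread of the family between mice (SD of the within-mouse log2 ratio 0.08).

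Cldn3 (ENSMUSG00000070473; chr5:134986214-134987472, plus strand), a sealing claudin made throughout the intestinal epithelium, had 356, 414 and 504 CPM in tdTom+ and 449, 549 and 738 CPM in tdTom− libraries. The ranges overlapped, although 5 of 8 tdTom+ libraries lay below every tdTom− library. Its log2 fold change was -0.43 (SE 0.06, adjusted p = 1.14e-05), and it was lower in 8 of 8 mice with ratios from -0.63 to -0.11. Its exons overlap those of Wbscr25 on the opposite strand, a gene with 22 counts over all libraries under stranded counting.

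Cldn4 (ENSMUSG00000047501; chr5:134945126-134946934, minus strand), a sealing claudin of surface and differentiated epithelium, moved least. It had 76.7, 124 and 173 CPM in tdTom+ and 74.6, 148 and 228 CPM in tdTom− libraries. The populations overlapped widely, with nearly equal lowest values and a lower median and highest value in tdTom+ cells. It was lower in 6 of 8 mice, with log2 ratios of 0.02 and 0.04 in mice 3 and 4. The log2 fold change was -0.28 (SE 0.07, adjusted p = 0.00134). Without the mouse in the model the fold change was as large, -0.30, but did not pass (adjusted p = 0.152), so that the call, not the size, rests on the pairing. In mice 1 to 3 alone it was -0.31 (adjusted p = 0.0294) and in mice 5 to 8 alone -0.34 (adjusted p = 3.20e-04). The change of Cldn3 and that of its neighbour Cldn4 were compared within mice: Cldn3 fell more in 7 of 8, by 0.15 on the log2 scale (SD 0.21), which did not pass 0.05 in a two-sided exact permutation test over all sign changes of the 8 mice (p = 0.109, also after adjustment over 2 pairs). Without mouse 1 the same difference was -0.21 (exact p = 0.0156, the smallest that 7 mice allow).

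Cldn1 (ENSMUSG00000022512; chr16:26356642-26371841, minus strand), a sealing claudin best known from skin, was at the floor of detection. It had 1 count in the 8 tdTom+ libraries together and 4 counts in the 8 tdTom− libraries, never more than 2 in a library. Over the raw library totals, not the scaled ones used for CPM elsewhere, a floor of 3 counts stands for 0.0655 to 0.182 CPM. It covers counting error only. A difference between the populations was not detectable at this depth (adjusted p = 0.698 when all genes were tested without a filter on low counts). Its counts do not show Cldn1 as a claudin of these sorted cells at this depth.

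Both pore-forming claudins were higher in tdTom+ cells. Cldn15 (ENSMUSG00000001739; chr5:136966616-136975858, plus strand), the channel-forming claudin of the intestine for sodium and other small cations, had 301, 335 and 402 CPM in tdTom+ and 126, 149 and 219 CPM in tdTom− libraries. The lowest tdTom+ library lay well above the highest tdTom− library, and the level was higher in 8 of 8 mice, by 1.73-fold to 2.62-fold. The log2 fold change was 1.16 (SE 0.06, adjusted p = 1.19e-11), or 2.23-fold.

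Cldn2 (ENSMUSG00000047230; chrX:139800828-139811386, plus strand), which forms channels for cations and water, had 316, 425 and 679.7 CPM in tdTom+ and 229.9, 271 and 433 CPM in tdTom− libraries. The ranges overlapped and 4 of 8 tdTom+ libraries lay above every tdTom− library, yet the level was higher in the tdTom+ library of each mouse, by 1.22-fold to 1.80-fold. The log2 fold change was 0.62 (SE 0.06, adjusted p = 5.04e-08). Cldn2 rose less than Cldn15 in 8 of 8 mice, the difference of their log2 ratios being -0.54 (SD 0.24, two-sided exact permutation p = 0.00781, the smallest that 8 mice allow, and 0.0156 adjusted over 2 pairs).

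The claudins without a settled role went in opposite directions. Cldn12 (ENSMUSG00000046798; chr5:5489537-5514958, minus strand), unusual in lacking the terminal motif by which most claudins bind the junction plaque, had 92.8, 99.2 and 109 CPM in tdTom+ and 69.6, 73.8 and 79.7 CPM in tdTom− libraries. Its groups did not overlap although the change was modest, and its level varied less between mice than that of any other member tested (log2 fold change 0.45, SE 0.05, adjusted p = 3.97e-07). The SD of its log2 CPM was 0.10 in tdTom+ and 0.07 in tdTom− libraries, against 0.39 and 0.32 for Cldn2.

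Cldn23 (ENSMUSG00000055976; chr8:35824709-35826559, minus strand), a single-exon claudin known from differentiated colon epithelium, had 33.7, 37.4 and 48.0 CPM in tdTom+ and 64.0, 104 and 173 CPM in tdTom− libraries. Every tdTom+ library was below every tdTom− library. The log2 fold change of -1.43 (SE 0.09, adjusted p = 8.44e-11), or 2.69-fold lower, was the largest of the family. It also varied most between mice, from -1.85 in mouse 2 to -0.79 in mouse 4. The tdTom− libraries carried most of that spread, with an SD of log2 CPM of 0.39 against 0.17 in tdTom+ libraries.

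**Figure D2:**
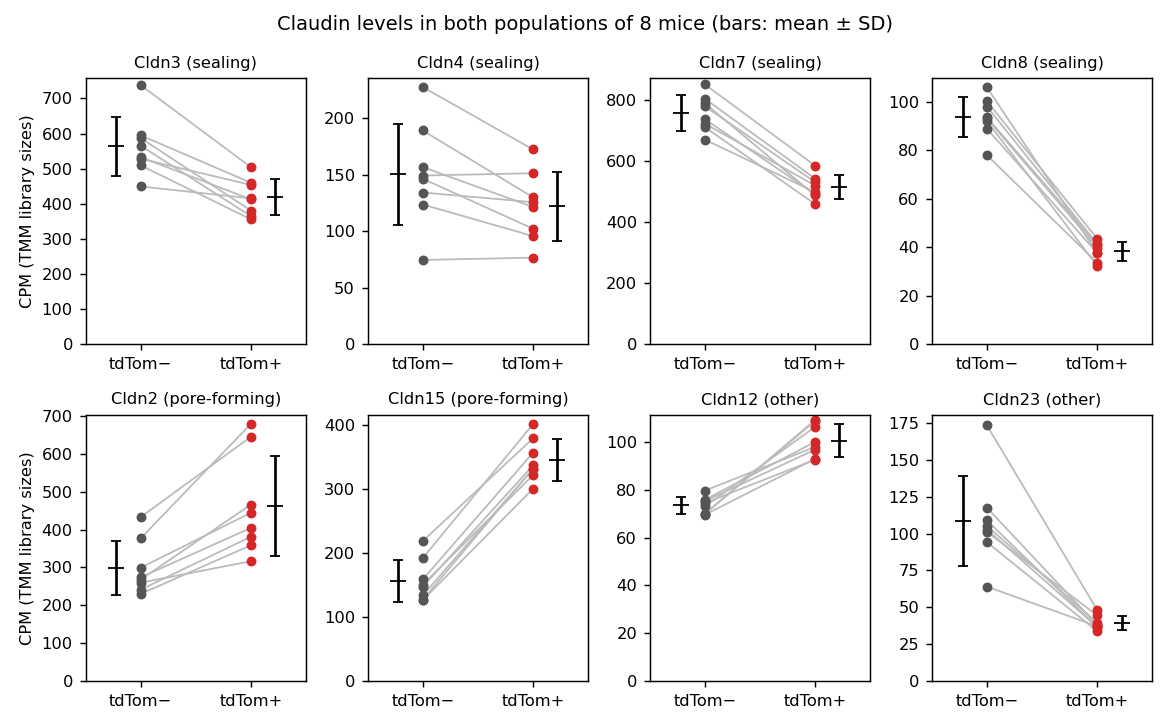
CPM (TMM library sizes) of 8 claudins in tdTom− (grey) and tdTom+ (red) cells, with lines joining the libraries of a mouse and bars giving mean ± SD of 8 libraries; each vertical axis starts at 0. Cldn7, Cldn8, Cldn12, Cldn15 and Cldn23 show no overlap, whereas the lines of Cldn4 run nearly flat in 2 mice.

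The mouse numbers in the labels fall into 3 runs (mice 1 to 3, mouse 4 and mice 5 to 8), which may or may not be batches. In mice 1 to 3 alone the log2 fold changes were 1.22 for Cldn15, 0.60 for Cldn2, 0.50 for Cldn12, -0.38 for Cldn3, -0.53 for Cldn7, -1.21 for Cldn8 and -1.61 for Cldn23. In mice 5 to 8 alone they were 1.21, 0.65, 0.46, -0.54, -0.62, -1.35 and -1.45 in the same order. All of these passed the threshold in both runs (largest adjusted p = 0.00808, Cldn3 in mice 1 to 3), and Cldn4 is given above. An edgeR interaction test of these runs detected no difference in the change of any member (adjusted p from 0.595 to 0.989). With so few mice the SE of that log2 difference was 0.1 to 0.13. The largest difference among the members, 0.19 for Cldn23 (SE 0.12), did not pass, so differences larger than 1 SE could also be missed. In this test 0 of 15851 genes were called, while 1795 had an unadjusted p under 0.05, a larger share than chance alone gives. Mouse 4 is alone in its run, and its place there cannot be told apart from the animal.

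Per length of transcript, on the TPM scale that corrects counts for exon length and depth, Cldn3 and Cldn7 were the leading claudins of both populations. Cldn3 had a mean of 672 ± 79.6 TPM in tdTom+ and 946 ± 57.5 TPM in tdTom− cells (SD, n = 8), and Cldn7 536 ± 60.3 and 829 ± 47.3 TPM. In tdTom+ cells Cldn15 (332 ± 55.8 TPM) and Cldn2 (289 ± 109 TPM) came next, followed by Cldn4 (134 ± 19.1 TPM), Cldn12 (48.5 ± 6.76 TPM), Cldn23 (42.9 ± 5.56 TPM) and Cldn8 (33.2 ± 5.72 TPM). Neighbours were compared at an adjusted p under 0.05, since 8 mice and 14 comparisons cannot give an adjusted exact p below 0.0156. In that order Cldn15 was not separated from Cldn2, nor Cldn12 from Cldn23 (both two-sided exact permutation p = 0.0703, adjusted 0.0895), and each of the other neighbours was (adjusted exact p from 0.0156 to 0.0243).

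In tdTom− cells the order behind Cldn7 was Cldn2 (195 ± 67.8 TPM), Cldn4 (174 ± 39.6 TPM), Cldn15 (160 ± 50.3 TPM), Cldn23 (122 ± 22.8 TPM), Cldn8 (85.1 ± 10.6 TPM) and Cldn12 (37.2 ± 3.94 TPM). Cldn2, Cldn4, Cldn15 and Cldn23 formed a middle tier whose neighbours were not separated (exact permutation p = 0.625, 0.547 and 0.148). Single mice decided parts of this: Cldn4 was above Cldn15 in 7 of 8 mice, and without mouse 4, the exception, the difference was 0.34 on the log2 TPM scale rather than 0.13 and passed (adjusted exact p = 0.0243). Without mouse 4 Cldn2 lay below Cldn4 by a log2 TPM difference of -0.08 (exact p = 0.766). Without mouse 2 Cldn15 was separated from Cldn23 in tdTom− cells and Cldn12 from Cldn23 in tdTom+ cells (both adjusted exact p = 0.0398). Cldn7 stood above this tier by 2.15 on the log2 TPM scale (SD 0.41, 8 of 8 mice), and Cldn8 above Cldn12 by 1.19 (SD 0.12). Cldn12, the last of the 8 in tdTom− cells, was above both Cldn23 and Cldn8 by mean TPM in tdTom+ cells. Cldn15 stood above Cldn4 in tdTom+ cells and next below it in tdTom− cells.

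The makeup of the claudin transcripts differed accordingly, which is given as a description. Of the summed TPM of the 9 members, the pore-forming pair made up 29.4% ± 4.18 (SD, n = 8) in tdTom+ and 13.9% ± 3.96 in tdTom− cells, and the ranges, 23.5% to 35.2% and 9.0% to 21.9%, did not overlap. The sealing claudins made up 66.2% ± 4.07 and 79.9% ± 3.26. The ratio of pore-forming to sealing transcripts was 0.325 to 0.579 in tdTom+ and 0.108 to 0.299 in tdTom− libraries. The summed level of the 9 members was 2087 ± 281 TPM in tdTom+ and 2549 ± 125 TPM in tdTom− cells, a lower mean in tdTom+ cells. The tdTom+ libraries ran from 1716 to 2599 TPM and the tdTom− libraries from 2419.5 to 2772 TPM. TPM took no TMM scaling, and the part of the abundant goblet transcripts of tdTom+ cells in this difference was not tested.

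**Figure D3:**
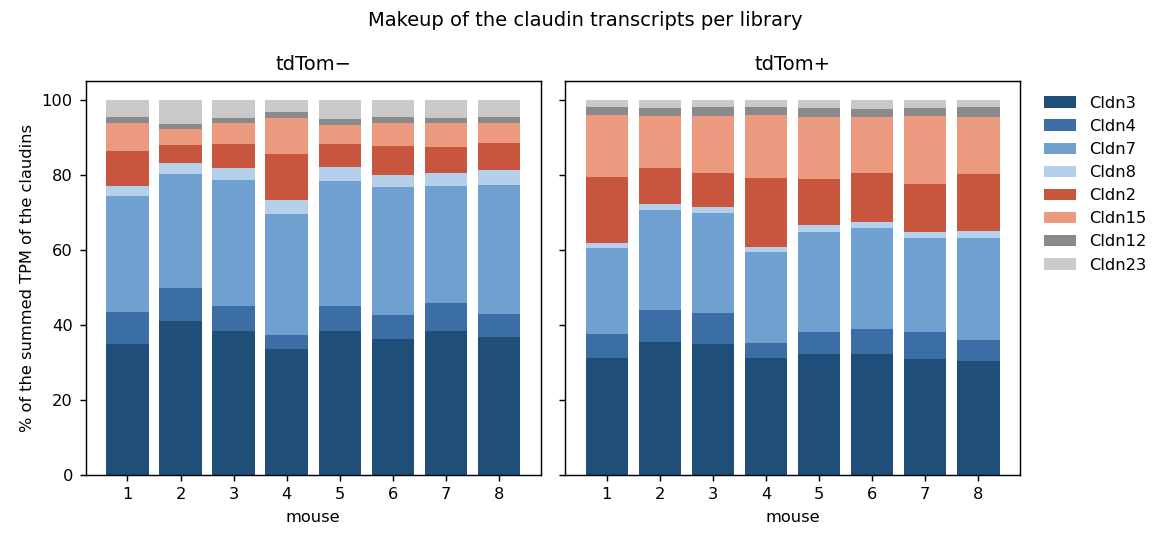
Share of each claudin in the summed TPM of the 9 members, 1 bar per library, with tdTom− cells on the left and tdTom+ cells on the right, sealing claudins in blue, pore-forming in red and the others in grey; Cldn1 is too low to be drawn. The red part is larger in tdTom+ cells of each mouse, and mice 1 and 4 have the largest red part in both populations.

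The same mice stood out in both populations. Cldn2 and Cldn15 were highest in mice 1 and 4, in tdTom+ as in tdTom− libraries, at 679.7 and 645.6 CPM of Cldn2 in tdTom+ cells where the other mice reached at most 466 CPM. Cldn4 was lowest in mouse 4 in both populations (76.7 and 74.6 CPM), and Cldn3, Cldn4, Cldn7 and Cldn23 were highest in mouse 2 in both. Within tdTom− cells, mouse 4 had the lowest absorptive marker sum (6557 CPM, against 8061 to 12639 CPM in the others) and the highest stem and dividing marker sum (1216 CPM, against 725 to 1062.5 CPM). Mouse 2 had the opposite extremes, 12639 and 725 CPM, and the highest immune marker sum (31.5 CPM). Mouse 4 also had the lowest share of mitochondrial counts in both populations (2.23% and 3.74%) and the deepest tdTom− library. The part of these in the claudin levels was not tested. Mouse 4 gave the log2 ratio nearest to 0 for Cldn3, Cldn7, Cldn15 and Cldn23. Without it the fold changes were -0.45, -0.56, 1.23 and -1.50, as large as with all 8 mice or larger.

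**Figure D4:**
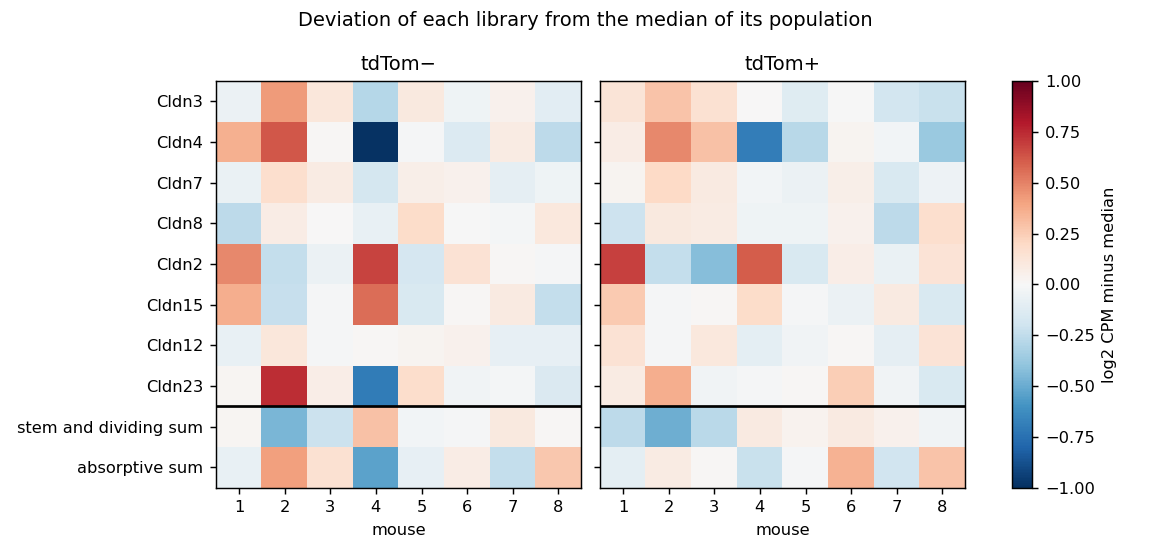
Log2 CPM of each library minus the median of its population, for 8 claudins and for the summed stem and dividing and absorptive markers (below the line), by mouse; red is above and blue below the median. Mouse 4 shows high Cldn2 and Cldn15 with low Cldn4, and mouse 2 shows high Cldn3, Cldn4, Cldn7 and Cldn23, in both populations.

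Few claudin genes outside these 9 passed the filter on low counts. Of 27 further claudin genes listed, 26 were in the count tables, 2 passed the filter, and 12 of the other 24 had no count in any library, the highest of them reaching 121 counts in all. Cldn14, a claudin of kidney and inner ear, had 6.40, 10.7 and 13.9 CPM in tdTom+ and 3.48, 5.31 and 6.51 CPM in tdTom− libraries. It was higher in 8 of 8 mice (log2 fold change 1.06, SE 0.09, adjusted p = 1.98e-08). Cldnd1, a more distant relative with a claudin domain, had 24.6, 30.4 and 34.4 CPM against 39.0, 41.1 and 44.4 CPM and was lower without overlap (log2 fold change -0.45, SE 0.06, adjusted p = 3.13e-06).

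Claudins share the tight junction with occludin-type and immunoglobulin-type membrane proteins. Of the 10 such genes tested, 1 was higher, 6 were lower and 3 did not pass. Over all genes tested, 28.4% were higher and 28.9% lower. The median log2 fold change was -0.34 against 0.00 over all genes. Lsr, the receptor that marks the corners where 3 cells meet, was the riser, with 275 to 363 CPM in tdTom+ and 137 to 186 CPM in tdTom− cells (log2 fold change 0.97, SE 0.05, adjusted p = 2.15e-11). Its corner partners went the other way: Marveld2 (tricellulin) changed by -0.36 (SE 0.05, adjusted p = 3.27e-06) and Ildr1 by -0.74 (SE 0.06, adjusted p = 9.23e-09). Ocln (occludin), a strand protein, changed by -0.39 (SE 0.05) and F11r (JAM-A), an adhesion receptor that recruits polarity proteins, by -0.53 (SE 0.05), each lower in 8 of 8 mice. The largest fall, -2.36 (SE 0.18) for the adhesion molecule Clmp, was at a low level, 0.338 to 1.23 CPM against 2.03 to 6.37 CPM.

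The plaque and polarity proteins beneath the strands followed a like count. Of 22 tested, 4 were higher (28.4% of all genes), 13 lower (28.9% of all genes) and 5 did not pass, with a median of -0.30. Among the scaffolds that bind claudin tails, Tjp1 (ZO-1) changed by -0.29 (SE 0.05, adjusted p = 1.60e-04, lower in 7 of 8 mice) and Tjp3 (ZO-3) by -0.64 (SE 0.05, adjusted p = 1.21e-09). Cgn (cingulin), which ties the junction to actin and microtubules, changed by -0.74 (SE 0.06), but its relative Cgnl1 (paracingulin) by 0.77 (SE 0.06, adjusted p = 6.85e-09), with 60.2 to 90.8 CPM in tdTom+ and 39.1 to 55.9 CPM in tdTom− cells. The other largest changes were -1.51 for Magi2, -1.27 for the polarity gene Pard6b and -1.08 for Arhgap17, and 2.67 for the scaffold Mpdz and 0.59 for Amotl1. Magi2 and Mpdz were near the detection limit, at most 1.95 and 2.70 CPM in any library.

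Adherens junction and desmosome genes, which hold cells together below the tight junction, were lower in 16 and higher in 2 of 18 tested (median -0.57). Of all genes, 28.9% were lower and 28.4% higher. Both risers were nectins, adhesion receptors of the adherens junction: Nectin1 at 1.84 (SE 0.06, adjusted p = 1.11e-14; 38.5 to 58.5 CPM against 10.7 to 16.5 CPM) and Nectin4 at 1.19 (SE 0.09). Nectin3 changed in the other direction, by -1.21 (SE 0.05, adjusted p = 2.29e-13). The desmosomal cadherin Dsg2 changed by -0.93 (SE 0.06) and plakoglobin (Jup) by -0.78 (SE 0.05). Cdh1 (E-cadherin) had 913 to 1083 CPM in tdTom+ and 1177.5 to 1359 CPM in tdTom− cells (log2 fold change -0.37, SE 0.05, adjusted p = 8.72e-06).

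Of 23 tested partners, proteases and regulators of claudins, 5 were higher, 10 lower and 8 did not pass (median -0.17). The shares over all genes were 28.4% higher and 28.9% lower. Epcam, which stabilises Cldn7 and whose protein was the sorting gate of both populations, changed by only -0.20 (SE 0.05, adjusted p = 0.00280), lower in 8 of 8 mice. The channel-activating protease Prss8 changed by 0.96 (SE 0.05, adjusted p = 4.56e-12; 81.8 to 94.8 CPM against 40.7 to 53.4 CPM) and Wnk4, a kinase that acts on claudins and ion transport, by 0.69 (SE 0.06). Grhl1, a grainyhead-type factor, was the next riser at 0.63 (SE 0.16, adjusted p = 0.00241, higher in 6 of 8 mice). Hnf4a, a transcription factor of differentiated enterocytes, changed by -1.11 (SE 0.06, adjusted p = 7.21e-12) and Mylk, the kinase that contracts the junctional actin ring, by -1.27 (SE 0.08). Gata4 changed by -2.15 (SE 0.31) at no more than 1.96 CPM.

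**Figure D5:**
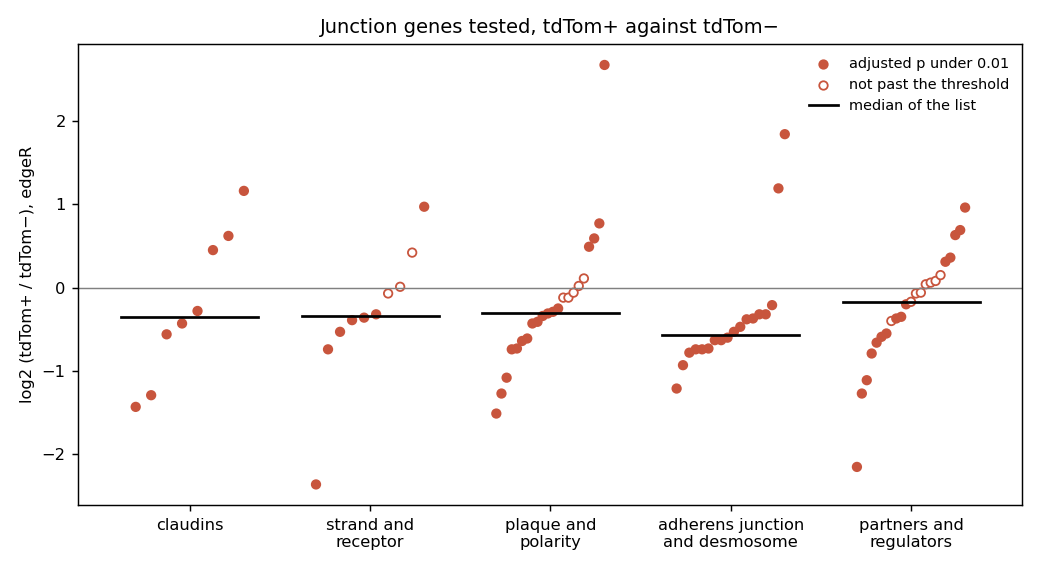
Log2 fold change (edgeR, tdTom+ against tdTom−) of each tested gene in 5 lists, with filled points past an adjusted p of 0.01, open points not past it and a line at each list's median. The medians lie below 0 in all 5 lists, while each list holds genes above 0.

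The genes whose log2 CPM ran most like that of the largest riser and the largest faller were sought among 15840 others, over the 16 libraries of both populations, so that the contrast between them enters the likeness. For Cldn15 they were Slc25a35, a mitochondrial carrier (r = 0.988), Actn1, an actin crosslinker (r = 0.987), and the membrane protein gene Sypl (r = 0.985). For Cldn23 they were the ephrin receptor Epha2 (r = 0.989), Tmcc3 (r = 0.985) and Tprn (r = 0.983). These are descriptions over libraries that share mice and depth.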

How the data were processed

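RNA of EpCAM+ tdTom+ and EpCAM+ tdTom− colon cells of 8 mice was sequenced from stranded mRNA libraries (single-end, 50 bp). The authors aligned the reads with TopHat2 2.1.1 to GRCm38.p3 and deposited raw counts per gene on exons from featureCounts (1.5.0-p1 per the file headers, Subread 1.5.2 in the submitters' processing notes, which also name DESeq2 1.14.1), from primary alignments on the reverse strand. Reads shared by close paralogs could be lost in this counting.

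Groups came from the sample labels and the pairing from the mouse number in the titles. Libraries of the same mouse deviated together (correlation 0.22 to 0.41 for 8 mice, -0.26 to 0.17 between mice), and no libraries of a group agreed within sampling noise. Symbols came from GENCODE M21 for 44585 genes. The counts were compared with edgeR 4.0.16 (R 4.3.3): filterByExpr, TMM, the mouse as a block, the quasi-likelihood test and a Benjamini-Hochberg adjusted p under 0.01 over all genes tested. The SE of an edgeR log2 fold change was derived from its test, as the size of the change divided by the square root of the F statistic. CPM used TMM library sizes and log2 CPM a prior count of 2. TPM was computed from the exon lengths in the files. Levels and paired changes were compared with exact permutation tests over all sign changes of 8 mice, at 0.05 after adjustment. Cldn1, which was not tested, left 14 neighbour comparisons and 2 pairs.

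Alternatives were the fit without the block, DESeq2 1.42.0 and limma-voom (limma 3.58.1) with it, upper-quartile or RLE scaling, all genes unfiltered, 10 counts or more in each library, leaving out each mouse, mice 1 to 3 or 5 to 8 only, and an adjusted p of 0.05. For the order of levels, the paired changes and the makeup, the tests with a mouse left out were added after seeing the data. The fit was tested on simulated counts. Named are all members, other claudins past the filter, Atoh1, a set of junction genes (Epcam, Cdh1, Ocln, Marveld2, F11r, Tjp1, Tjp3, Cgn and 1 that is not reported here), the 3 largest changes in each direction of each junction list and the 3 genes most like Cldn15 and Cldn23. The members and lists were chosen with earlier results of these data known.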

Additional observations from a re-analysis of the deposited data

Results flagged for a closer look

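The tdTom− library of mouse 4 held 45791503 counts, where the other 7 libraries of the group held 18318172 to 20668605, a gap past Dixon's 95% critical value for 8 samples. It was the only such value among 18 sets of 8 libraries checked (the totals and the log2 CPM of the claudins tested), of which chance gives about 0.9. Without mouse 4 the claudins called were again 3 higher and 5 lower.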

How the results depend on the processing

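Of 414 values under alternatives, over 34 results, 407 stayed on the same side of 0 and of the threshold (or stayed within 1.5 times a count or 1 SD of a value). The other 7 were as follows. Without the replicate block, that is without pairing the libraries of a mouse, the log2 fold change of Cldn4 was -0.30 (adjusted p = 0.152), and in mice 1 to 3 only it was -0.31 (adjusted p = 0.0294). Over all its alternatives its adjusted p ran from 8.95e-06 to 0.152. The block changed no other claudin's call. The difference in fold change between Cldn3 and Cldn4 (-0.15) was -0.21 without mouse 1 (exact permutation p = 0.0156) and ran from -0.21 to -0.11 over the mice left out. With each mouse left out, log2 fold changes of Cldn4 ran from -0.32 to -0.24, of Cldn23 from -1.50 to -1.36 and of Cldn15 from 1.13 to 1.23. In the order of levels per length, leaving out mouse 4 turned Cldn2 minus Cldn4 in tdTom− cells to -0.08 (up to 0.28 over the mice left out) and separated Cldn4 from Cldn15, and leaving out mouse 2 separated Cldn23 from Cldn15 in tdTom− and from Cldn12 in tdTom+ cells. The median of all genes was 0.003 with TMM or RLE and -0.01 with upper-quartile scaling. At this depth Cldn1 and most claudins not named cannot be compared.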
